A study of Homo sapiens with 29 samples.

Results

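The TMPRSS2 locus was followed through 29 ATAC-seq libraries of 22Rv1 cells, a human prostate cancer line. The locus was set as positions 42780000 to 42960000 of chromosome 21 in build hg19. The gene lies inside this window at 42836478 to 42880085 on the minus strand, so positions above 42880085 are upstream of its start. All peaks of the 29 deposited lists that touched the window were merged over libraries, which gave 25 regions of the 166696 in all lists. Position alone placed these regions in the locus, though the locus was chosen with earlier results of these data known. The nearest regions just inside the edges began at 42783210 and 42955116. The nearest just outside were 42768338 to 42769181, held by 29 libraries, and 43013366 to 43013766, held by 19.

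TMPRSS2 encodes a transmembrane serine protease of the luminal prostate epithelium. Its transcription is driven by the androgen receptor, a hormone-activated transcription factor that binds enhancers upstream of the gene. FOXA1 is a pioneer factor, which opens compacted chromatin and helps the androgen receptor reach such enhancers. In many prostate tumours the androgen-driven promoter of TMPRSS2 is fused to ERG, a fusion that 22Rv1 is not known to carry. In RefSeq, used here for gene order only and on build GRCh38.p14, the next protein-coding genes past the end of TMPRSS2 are MX1 and then MX2, interferon-induced GTPases. The next protein-coding gene on the upstream side is RIPK4, a kinase of epithelial differentiation.

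Of the 29 libraries, 15 came from parental 22Rv1 cells, as 5 groups of 3. The groups received DMSO (0.1%), the covalent compound WX-02-23 at 20 µM, WX-02-43, which is a stereoisomer of it, at 20 µM, or PladB at 10 nM or 100 nM. PladB, pladienolide B, binds the spliceosome subunit SF3B1 and inhibits splicing. The other 14 libraries came from engineered 22Rv1 cells, as 7 groups of 2. All of them stably expressed Y36C-PHF5A, a spliceosome variant that blunts the action of splicing ligands, together with a doxycycline (Dox)-inducible FOXA1. In one line this was WT-FOXA1 and in the other C258A-FOXA1, which lacks the cysteine that WX-02-23 engages. Each line received Dox together with DMSO, WX-02-23 (20 µM) or PladB (100 nM). One more group of the WT-FOXA1 line had DMSO and no Dox. Treatments lasted 3 h. The lines still carry endogenous FOXA1, and the sources used here do not say whether each is 1 clone or a pool. Cells grew in medium with fetal bovine serum, and the labels name no added androgen. Nothing in the labels says that replicates came from separate cultures, so the spread between them may be technical.

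Each library was its own list of 62832 to 98193 peaks. The measure compared between libraries was whether a list held a peak in a region. The height of a peak is given as the authors' fold enrichment. It is the reads at the summit over the peak caller's local background, with a single read added to both. Because of the added read, the fold also depends on the depth of the library. In bulk libraries, fewer cells with an open region and less openness per cell cannot be told apart. Fold and p-value together also fix the whole number of reads at the summit and the background in reads. A unique pair came out for all 418 peaks of the window (tolerance 0.0002 in −log10 p). The library-wide background, a relative measure of depth, was 0.662 to 1.502 reads per base in the parental and 0.546 to 1.256 in the engineered lists. WX-02-43 replicate 3 had the highest background and, at 83748, fewer peaks than its 2 sister libraries. WT-FOXA1 WX-02-23 replicate 2 had the highest background of the engineered libraries and the shortest list of all. Peak names place the parental and the engineered lists in separate processing folders, so line and batch cannot be told apart. Values of the lines are set side by side only.

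The window, which reaches beyond TMPRSS2 on both sides, was dense in peaks. The window held 38.9 to 111.0 peaks per Mb, against 20.9 to 32.7 over the whole genome and 20.3 to 30.5 on chromosome 21. The ratio to the genome was 1.86 to 3.48 with a median of 2.89, and it was above 1 in 29 of 29 libraries. Windows of this size around other genes were not compared, so the density is not shown to be particular to this locus. Of the 25 regions, 2 lay at the promoter, 7 in the gene body, 6 beyond the gene's end and 10 upstream. The regions were 166 to 907 bp wide.

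Regions ranged from those held everywhere to those held once. All 29 libraries held 7 regions, and none of these was upstream. They were 5 regions beyond the gene's end, 1 in the gene body and the region at the start. The upstream part held 4 regions that all 15 parental libraries shared and none that all 14 engineered libraries shared. Of these 4, the regions 22.4, 28.4 and 75.3 kb upstream were held by every C258A-FOXA1 library. Their gaps lay in WT-FOXA1 libraries only. A further 7 regions, 6 of them in the gene body, were each held by 1 library. Across the genome 21.5% of regions were held by all 29 libraries and 16.9% by 1. At the locus both shares were 28.0%. Regions held by parental libraries only were 40.0% at the locus and 25.2% across the genome. Of these 10 locus regions, 7 were the ones held by 1 library. The engineered lists were also shorter, with a median of 76988 peaks against 93068 in the parental lists. The genome share of regions held by all parental but not all engineered libraries is not given here.

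**Figure D1:**
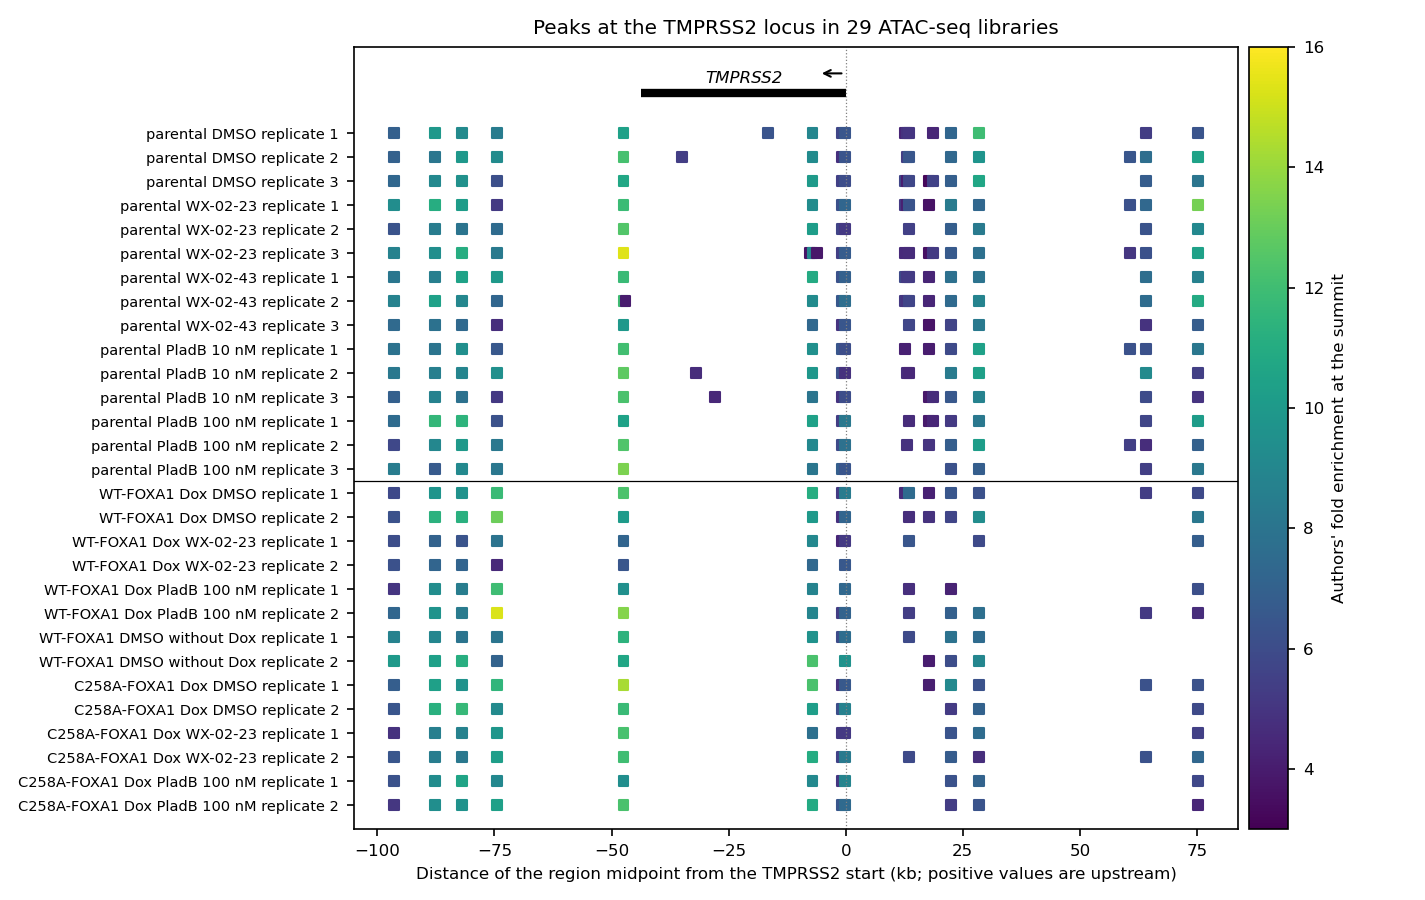
Each row is a library and each square a locus region with a peak, placed by distance from the TMPRSS2 start in kb and coloured by the authors' fold enrichment. The 7 regions held by all 29 libraries form unbroken columns at and left of the start, while the upstream columns on the right have gaps.

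At the promoter, accessibility sat on the annotated start. The start region, chromosome 21 from 42879742 to 42880253, was held by 29 of 29 libraries. Its summit lay a median of 6 bp from the annotated start and moved over 168 bp among libraries. Fold enrichment ranged from 4.87 in PladB 10 nM replicate 2 to 9.64 in WT-FOXA1 without Dox replicate 2. Parental DMSO lists gave 6.47, 6.39 and 6.03, WX-02-23 lists 7.26, 5.15 and 6.72, and WX-02-43 lists 6.98, 7.67 and 6.48. PladB 10 nM lists gave 6.08, 4.87 and 6.03, and PladB 100 nM lists 8.18, 7.82 and 6.40. DMSO overlapped WX-02-23, PladB 10 nM and PladB 100 nM. WX-02-43 lay just above DMSO, by 6.48 against 6.47 at the closest. In summit reads over the library background the 2 groups overlapped.

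In WT-FOXA1 cells the start region gave 8.35 and 7.20 with DMSO and 5.23 and 6.55 with WX-02-23. In the C258A-FOXA1 line the values were 6.58 and 8.67 after DMSO and 5.17 and 8.31 after WX-02-23. The WT-FOXA1 groups did not overlap and the C258A-FOXA1 groups did. Across the genome 55.5% of regions were lower with WX-02-23 and without overlap in WT-FOXA1 cells, beside 24.9% in C258A-FOXA1 cells. A difference between the lines was not tested at this region. Without Dox the WT-FOXA1 lists gave 7.59 and 9.64. PladB gave 7.35 and 7.07 in the WT-FOXA1 and 8.88 and 7.47 in the C258A-FOXA1 line.

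A second promoter region, 42878789 to 42879665, lay just inside the gene. It was held by 26 libraries, with a median fold of 5.51. All 15 parental libraries held it, from 4.82 in DMSO replicate 2 to 6.89 in PladB 100 nM replicate 3, and every parental treatment overlapped DMSO (5.70, 4.82 and 5.46). It was missing in WT-FOXA1 WX-02-23 replicate 2, WT-FOXA1 PladB replicate 1 and WT-FOXA1 without Dox replicate 2. The 3 partner libraries of these held it at 4.39, 5.33 and 5.99, and WT-FOXA1 DMSO gave 5.23 and 4.81. All 6 C258A-FOXA1 libraries held it, at 4.84 to 6.49.

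The tallest peak within the gene lay 7.1 kb inside the start, at 42872594 to 42873396. Its place among exons and introns was not analysed here. All 29 libraries held it, with 20 to 56 reads at the summit and a median fold of 9.28. Parental DMSO lists gave 8.98, 9.24 and 10.05 and parental WX-02-23 lists 9.28, 10.20 and 9.10, which overlap. In the engineered lists it ranged from 7.32 in WT-FOXA1 WX-02-23 replicate 2 to 12.3 in C258A-FOXA1 DMSO replicate 1. The other 6 regions of the gene body were each held by 1 parental library. The highest of them by fold was 42863331 to 42863529, with 6.38 in DMSO replicate 1, followed by 42844970 to 42845150, with 5.38 in DMSO replicate 2.

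Beyond the gene's end, on the side of MX1 and MX2, 5 of 6 regions were held by all libraries. Which gene these regions belong to was not analysed here, so they may not be part of TMPRSS2's own chromatin. The highest by median fold were 42832381 to 42832885 (11.9), 42797858 to 42798530 (9.45) and 42792015 to 42792921 (9.06). The first of these was the highest peak of the whole window by fold in 19 of 29 libraries. It gave 10.4, 12.2 and 10.7 after parental DMSO, 11.9, 12.5 and 15.4 after WX-02-23, and 11.8, 11.9 and 9.93 after WX-02-43. PladB gave 12.0, 12.8 and 12.2 at 10 nM and 10.5, 12.4 and 13.5 at 100 nM. Each of these groups overlapped DMSO. Its summit moved over 82 bp among the 29 libraries. The region at 42797858 lay between 7.42 and 11.4 and that at 42792015 between 6.68 and 11.6 in parental lists. The sixth region, 42832943 to 42833156, was held by WX-02-43 replicate 2 alone.

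Fold and read height ranked the regions differently. The number of reads at the summit placed other regions first. By it the top of the window was the region 7.1 kb inside the gene in 14 libraries, the region at 42792015 in 13 and that at 42832381 in 2. The start region had a median local background of 3.14 times the library-wide level, whereas the regions 64.2 and 75.3 kb upstream had a median of 1.0. The start was higher than the region 28.4 kb upstream by fold in 9 of 27 libraries and by summit reads in 24 of 27. So the promoter's fold was taken over a higher local background than that of the far upstream regions.

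**Figure D2:**
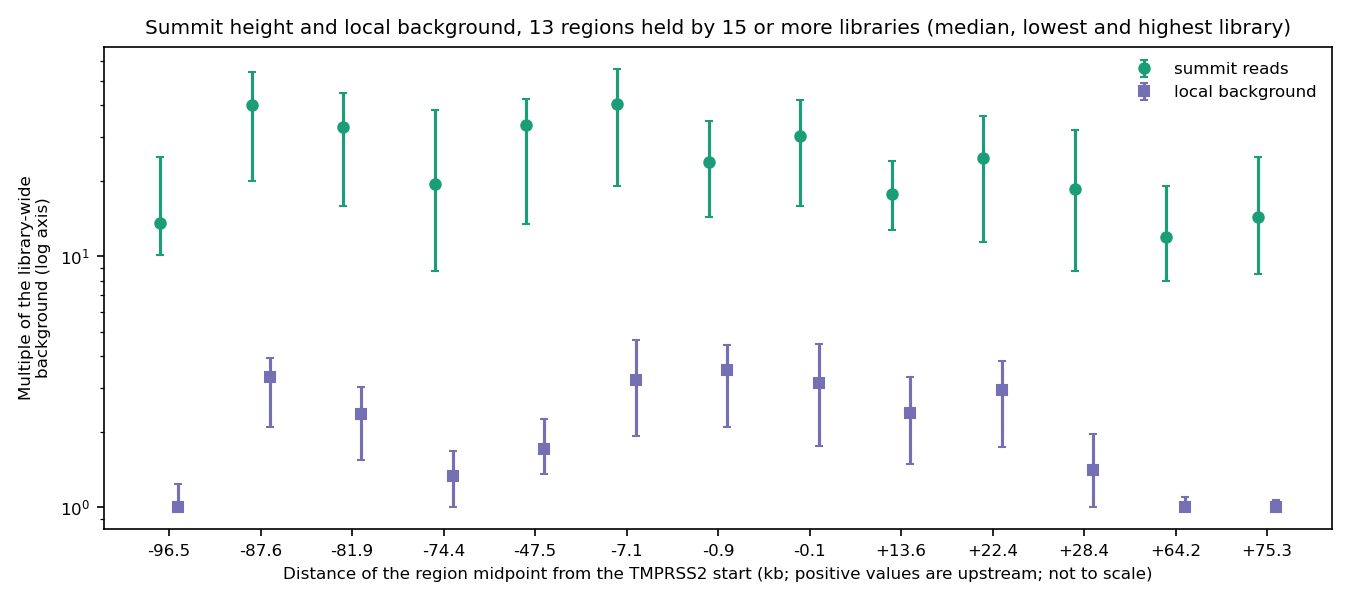
Summit reads (circles) and local background (squares) as multiples of the library-wide background on a log axis, for the 13 regions held by 15 or more libraries. Points are medians over the libraries that held the region and whiskers the lowest and highest. The median local background is 3.14 at the gene start and 1.0 at the 2 outermost upstream regions.

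Upstream of the gene, the regions nearest the start formed a cluster. Between 12.6 and 13.6 kb upstream of the start, 3 narrow regions lay within one stretch, at 42892576 to 42892852, 42892993 to 42893226 and 42893443 to 42893901. They were held by 8, 8 and 18 libraries. An androgen receptor-bound enhancer of TMPRSS2 is known upstream of the gene. Whether these regions are that enhancer was not tested. Median folds were 4.89, 4.86 and 5.57, and the summits of the region 13.6 kb upstream held 10 to 27 reads, against 5 to 8 for the lowest peak of each list.

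The region 13.6 kb upstream was held by all 9 parental libraries without PladB and by 2 of the 6 with it, a pattern noted after the values were seen and not tested. It had a peak in 3 of 3 DMSO lists (fold 5.02, 6.49 and 5.75), 3 of 3 WX-02-23 lists (6.33, 5.48 and 4.59) and 3 of 3 WX-02-43 lists (5.24, 5.65 and 5.74). A peak was present in 1 of 3 PladB 10 nM lists (4.43) and 1 of 3 PladB 100 nM lists (4.61). Its neighbour 13.0 kb upstream was held by all 3 DMSO lists (4.86, 5.40 and 4.03), by WX-02-23 replicate 1 (4.14) and by WX-02-43 replicates 1 and 2 (5.19 and 4.96). With PladB it was held by replicate 2 at 10 nM (4.69) and replicate 2 at 100 nM (4.85). The region 12.6 kb upstream was held by DMSO replicates 1 and 3 (4.33 and 5.65), WX-02-23 replicates 1 and 3 (5.16 and 4.55) and WX-02-43 replicates 1 and 2 (5.87 and 5.18). With PladB it was held by replicate 1 at 10 nM alone (4.17). None of the PladB 100 nM lists held it.

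Depth beside that pattern was as follows. The background of the PladB 10 nM libraries, 0.843 to 1.016, covered that of DMSO, 0.881 to 1.002, while PladB 100 nM was lower at 0.662 to 0.734. The mean DMSO summit 13.6 kb upstream was 21.3 times the library background. Scaled by library background alone to the 4 PladB libraries without a peak, this is 14.1 to 21.6 reads. At the DMSO local background 9 to 11 reads sufficed for a call there. The scaled value rests on the DMSO lists, all of which held the region, and the part of depth was not tested. With a stricter q-value of 1e-05, none of the PladB lists and all DMSO lists held the region at either dose. The share of all regions lost at that q-value is not given here, nor is the share with the pattern above. So neither can be read as particular to this region.

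In the engineered lines the region 13.6 kb upstream was held by 2 of 2 WT-FOXA1 DMSO lists (7.50 and 4.69), 1 of 2 WX-02-23 lists (6.46), 2 of 2 PladB lists (4.77 and 5.37) and 1 of 2 lists without Dox (5.91). In the C258A-FOXA1 line it was held by none of the DMSO or PladB lists and by 1 of 2 WX-02-23 lists (5.91). Of the other 2 regions of the cluster, the engineered libraries held only the one 12.6 kb upstream, in WT-FOXA1 DMSO replicate 1 (4.62).

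No region elsewhere shared the presence pattern of this region in all 29 libraries. The closest were chromosome 21 from 27498271 to 27499264, matching in 27 libraries, chromosome 2 from 86426451 to 86426713, in 26, and chromosome 2 from 206766820 to 206767462, in 25.

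Further out, 2 weak regions followed. The region 17.8 kb upstream, 42897743 to 42898041, was held by 14 libraries at a median fold of 4.05. All 3 WX-02-43 lists held it (4.35, 4.40 and 3.67), against 1 of 3 DMSO lists (3.23). WX-02-23 replicates 1 and 3 (3.64 and 3.52), PladB 10 nM replicates 1 and 3 (4.04 and 3.86) and PladB 100 nM replicates 1 and 2 (3.90 and 4.95) held it too. In engineered cells it was held by both WT-FOXA1 DMSO lists (4.21 and 4.83), 1 list without Dox (4.05) and 1 C258A-FOXA1 DMSO list (4.11), and by none with WX-02-23 or PladB. This pattern was noted after the values were seen and not tested, and the share of all regions with it is not given here. Where called, the peak stood near the floor, with a median of 8.3% of the peaks in its list less significant by p-value. The region 18.7 kb upstream, 42898637 to 42898933, was held by 5 parental libraries. The region 60.7 kb upstream, 42940598 to 42941015, was also held by 5, again all parental, at 5.06 to 6.50. Regions held by 5 or more libraries, all of them parental, made up 12.0% of the locus regions and 6.6% of all regions.

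The 4 upstream regions common to all parental libraries lay 22.4, 28.4, 64.2 and 75.3 kb from the start. The region 22.4 kb upstream, 42902162 to 42902845, was held by 27 of 29 libraries. Parental DMSO lists gave folds of 7.24, 7.36 and 6.88, WX-02-23 lists 8.34, 6.82 and 6.61, and WX-02-43 lists 7.75, 7.44 and 5.62. These groups overlap. PladB 100 nM lists gave 5.22, 6.86 and 6.24, all below DMSO by fold but not by summit reads over the library background, and PladB 10 nM lists 5.91, 8.38 and 6.54.

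The region 28.4 kb upstream, 42908119 to 42908892, was the one locus region whose fold in the 3 WX-02-23 lists lay below all DMSO lists. DMSO gave 12.0, 9.72 and 10.7 and WX-02-23 gave 7.29, 8.30 and 7.76. The stereoisomer WX-02-43 also lay below DMSO, at 7.93, 8.83 and 8.23, and overlapped WX-02-23. In summit reads over the library background the same separation held: 23.0 to 31.8 for DMSO, 16.1 to 19.1 for WX-02-23 and 17.3 to 19.7 for WX-02-43. PladB 10 nM gave folds of 10.4, 10.3 and 8.77 and PladB 100 nM 8.18, 10.2 and 6.84, both overlapping DMSO. Both comparisons share the DMSO libraries, as do the PladB comparisons, so 1 set of 3 control lists stands behind each of them. In engineered cells this region gave 6.21 and 9.35 in WT-FOXA1 DMSO lists, 5.94 and no peak with WX-02-23, no peak and 7.69 with PladB, and 7.48 and 8.98 without Dox.

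That separation is set against all regions. Of the 13 locus regions held by all 6 libraries, 1 was lower and 0 higher with WX-02-23, beside 9.46% lower and 10.1% higher across the genome. WX-02-43 gave 1 lower and 2 higher of 13, beside 6.63% and 2.76%. PladB 10 nM gave 0 and 0 of 12, beside 5.67% lower and 6.17% higher, and PladB 100 nM 1 lower and 0 higher of 12, beside 8.47% and 9.13%. WX-02-23 against WX-02-43 gave 0 of 13 either way, beside 5.49% lower and 10.7% higher. The 2 higher with WX-02-43, the start region and 42783210 to 42784002, overlapped DMSO in summit reads over the library background. Folds from separately called lists are the authors' values and were not tested.

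**Figure D3:**
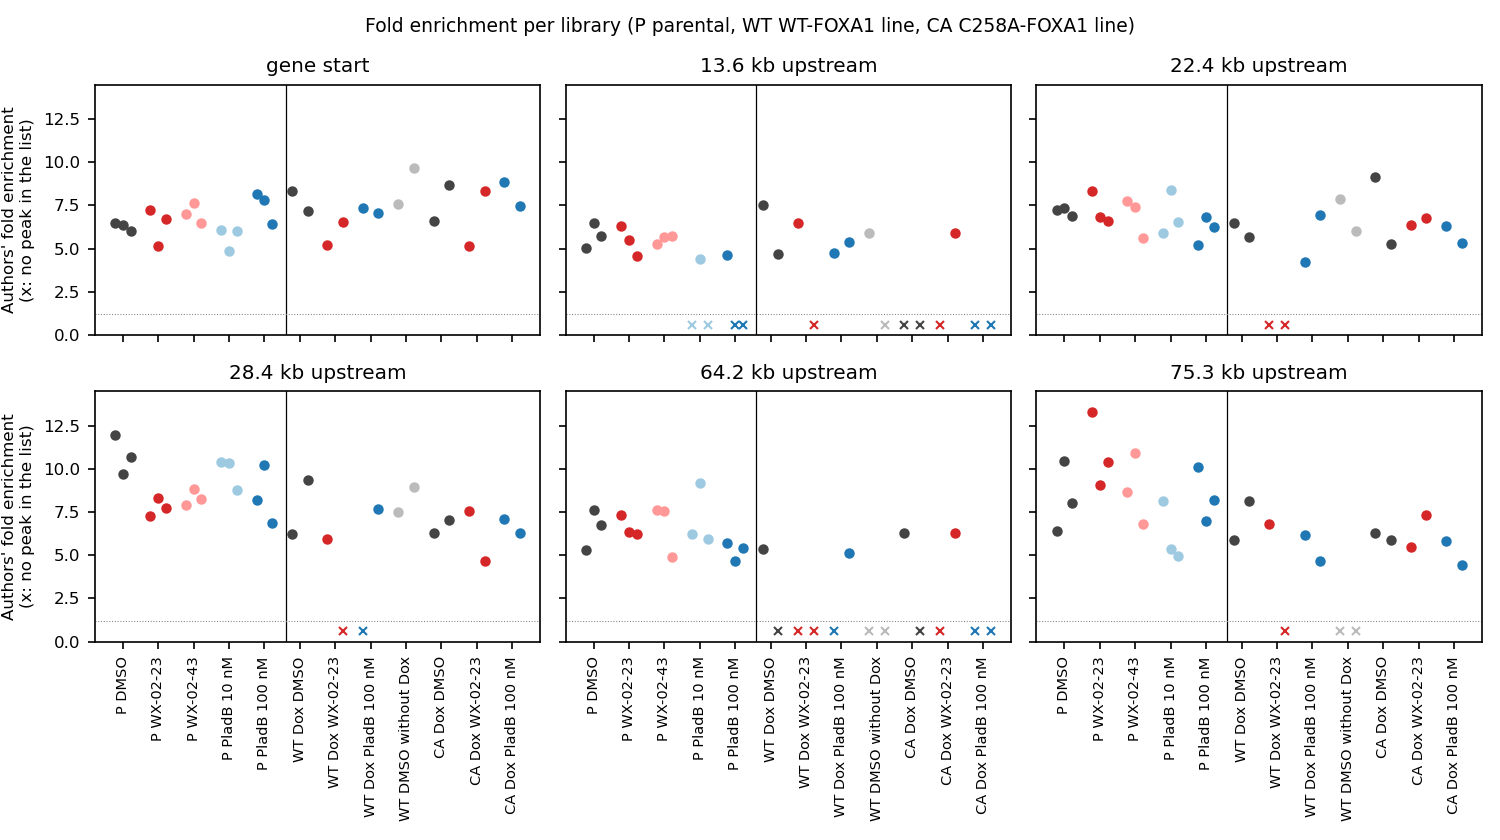
The authors' fold enrichment (y axis) of each library by group (x axis) at the gene start and at 5 upstream regions. Crosses under the dotted line mark libraries without a peak. At 28.4 kb the 3 parental DMSO points lie above the WX-02-23 and WX-02-43 points, and at 22.4 kb both WT-FOXA1 WX-02-23 libraries have no peak.

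The 2 outermost regions had few reads at the summit. The region 64.2 kb upstream, 42944054 to 42944418, was held by 15 of 15 parental and 4 of 14 engineered libraries, with 7 to 16 reads at the summit. DMSO lists gave 5.32, 7.64 and 6.77, WX-02-23 lists 7.32, 6.35 and 6.24, and WX-02-43 lists 7.63, 7.55 and 4.91, all overlapping. PladB gave 6.22, 9.16 and 5.95 at 10 nM and 5.71, 4.66 and 5.42 at 100 nM, which overlap DMSO too. The 4 engineered libraries that held it were 1 each of WT-FOXA1 DMSO (5.35), WT-FOXA1 PladB (5.16), C258A-FOXA1 DMSO (6.29) and C258A-FOXA1 WX-02-23 (6.26). The region 75.3 kb upstream, 42955116 to 42955579, was held by 15 of 15 parental and 11 of 14 engineered libraries, with 6 to 28 reads. Its folds ranged widely within groups: parental DMSO lists gave 6.38, 10.5 and 8.04 and WX-02-23 lists 13.3, 9.07 and 10.4, which overlap. WX-02-43 lists gave 8.65, 10.9 and 6.79, PladB 10 nM lists 8.16, 5.39 and 4.96, and PladB 100 nM lists 10.1, 6.99 and 8.21. The 3 engineered libraries without this peak were WT-FOXA1 WX-02-23 replicate 2 and both WT-FOXA1 libraries without Dox.

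Whether a treatment changed how many regions of the locus were open in parental cells was tested over libraries. DMSO libraries held 17, 16 and 17 of the 25 regions. WX-02-23 libraries held 17, 13 and 19, and their mean differed from DMSO by -0.333 regions (SE 1.8), and the exact permutation test, two-sided, gave a p of 1.0. Without WX-02-23 replicate 2 this difference was 1.33. WX-02-43 libraries held 16, 17 and 14, a difference of -1.0 (SE 0.943), with an exact permutation p of 0.7. Adjusted over the 5 parental comparisons both exact permutation values were 1.0. Both groups overlapped DMSO.

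The PladB groups did not overlap DMSO. PladB 10 nM libraries held 15, 15 and 15 regions, a difference of -1.67 (SE 0.333), and PladB 100 nM libraries 15, 15 and 12, a difference of -2.67 (SE 1.05). The exact permutation test gave each a two-sided p of 0.1, below which 3 against 3 libraries cannot go. Adjusted by Benjamini-Hochberg over the 5 parental comparisons both exact permutation values were 0.25, so neither passed. With lists of equal length the PladB 100 nM difference was -1.67, with an exact permutation p of 0.3, and with 50% of a region covered it was -5.0, with an exact permutation p of 0.1. PladB 100 nM lists were also shorter than DMSO lists, at 82538 to 87426 against 91632 to 98193 peaks.

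The stereoisomers, both at 20 µM for 3 h, were compared directly as the only pair. WX-02-23 libraries held 0.667 regions more on average (SE 1.97). The exact permutation p, two-sided, was 0.9, and 1.0 adjusted over the 5 comparisons. Single pairs of libraries differed by -4 to 5 regions, so the 2 compounds were not shown to act alike. The sign reversed with a stricter q-value, with lists of equal length, and without WX-02-23 replicate 3 or WX-02-43 replicate 3.

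**Figure D4:**
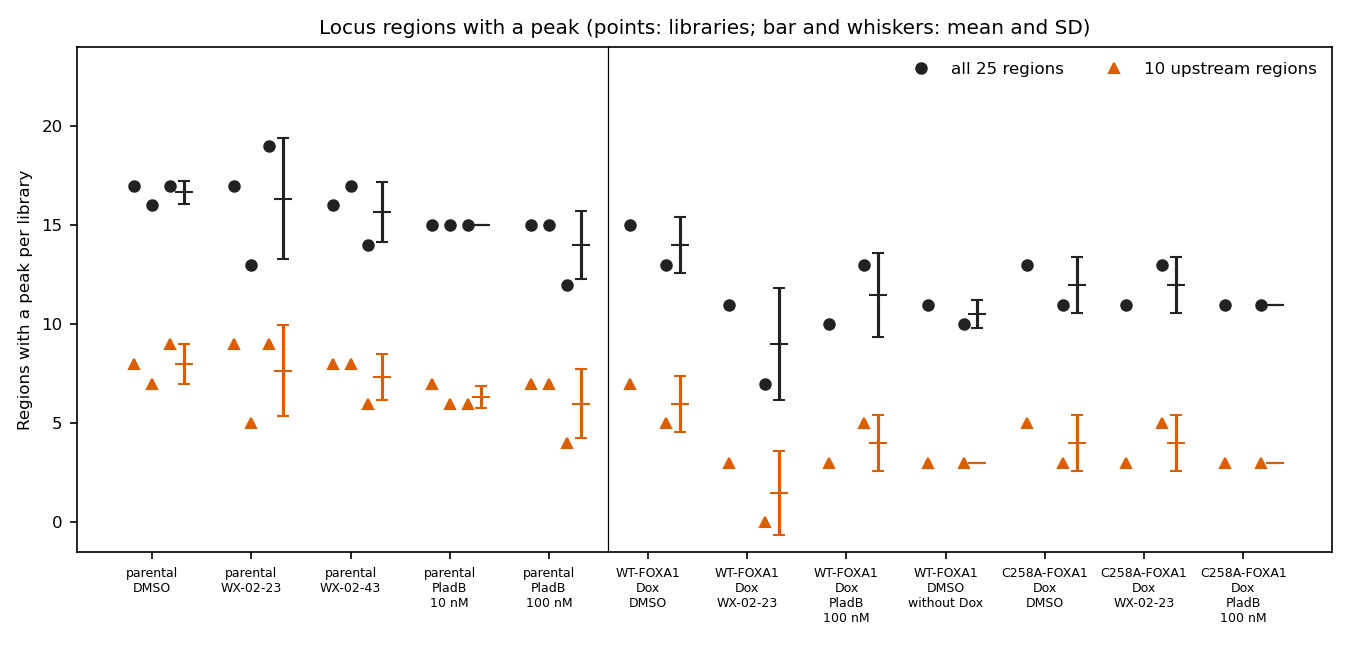
Number of locus regions with a peak per library (circles, all 25 regions) and of the 10 upstream regions (triangles), by group, with the mean and SD beside the points. The 6 PladB libraries of parental cells hold 12 to 15 regions against 16 or 17 after DMSO, and WT-FOXA1 WX-02-23 replicate 2 holds 0 upstream regions.

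A region was called gained when every treated and no control library held a peak, and lost in the reverse case. In parental cells no locus region met either rule. For WX-02-23 against DMSO this was 0 of 22 regions, beside 1.82% gained and 1.18% lost across the genome. It was 0 of 21 for WX-02-43 (0.34% and 0.369%), 0 of 22 for PladB 10 nM (0.408% and 0.556%), 0 of 20 for PladB 100 nM (0.187% and 1.68%) and 0 of 21 for WX-02-23 against WX-02-43 (1.60% and 1.07%). Single libraries decided some of these counts. With a library left out the rule is easier to meet, and no share of all regions is given for such counts, here or below. With WX-02-23, 1 region was lost without its replicate 1 (13.0 kb upstream). With WX-02-43, 1 was gained without DMSO replicate 3 (17.8 kb) and 1 lost without DMSO replicate 2 (18.7 kb). With PladB 10 nM, 2 were lost without its replicate 2 (13.0 and 13.6 kb). With PladB 100 nM, 1 was lost without its replicate 1 (13.6 kb), its replicate 2 (13.0 kb) or DMSO replicate 2 (12.6 kb). WX-02-23 against WX-02-43 gained 1 without WX-02-23 replicate 2 (60.7 kb).

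In the WT-FOXA1 line the WX-02-23 libraries held fewer peaks upstream of TMPRSS2 than the DMSO libraries, a difference that 2 libraries per group cannot put past a test. DMSO libraries held 15 and 13 locus regions and WX-02-23 libraries 11 and 7, a difference of -5.0 (SE 2.24). With 2 against 2 libraries no exact permutation p can fall below 0.333, the value found. Of the 10 upstream regions the DMSO libraries held 7 and 5, WX-02-23 replicate 1 held 3 and replicate 2 held 0. The lists as a whole were also shorter, at 67815 and 62832 against 88140 and 85009 peaks. With the lists of this comparison cut to equal length the difference was 0.0.

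Of 15 regions, 2 were lost and 0 gained, beside 11.7% lost and 1.31% gained across the genome. The lost ones were the regions 17.8 and 22.4 kb upstream. At 22.4 kb, DMSO lists gave folds of 6.50 and 5.65 and both WX-02-23 lists had no peak. The DMSO summits held 17 and 16 reads. Scaled by library background alone, this corresponds to 17.4 and 24.2 reads in the WX-02-23 libraries. There 9 and 11 would have sufficed for a call. The scaled values rest on the DMSO lists, which held the region by the rule that called it lost. The scaling takes no account of the lower folds across the genome in the WX-02-23 lists, and the part of depth in this loss was not tested. The region 22.4 kb upstream stayed lost with a q-value of 1e-05 or below and with lists of equal length. Where 50% of the region had to be covered it was not called, and the start region and the region 7.1 kb inside the gene were. At 17.8 kb, DMSO lists gave 4.21 and 4.83, and the loss was not called with lists of equal length or the stricter q-value. Without WX-02-23 replicate 1 the lost regions numbered 6, and without DMSO replicate 2 they numbered 4. The rule is easier to meet with fewer libraries, and the genome shares above do not apply to these counts.

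Of the 7 regions that all 4 libraries held, 6 were lower by fold in both WX-02-23 lists than in both DMSO lists and 0 were higher, beside 55.5% lower and 5.19% higher across the genome. A lower fold was thus the common case in these lists, at the locus and elsewhere. The highest region by median fold, 42832381 to 42832885, gave 12.3 and 10.1 after DMSO and 7.17 and 6.46 after WX-02-23. WX-02-23 replicates had a background of 0.903 and 1.256 against 0.869 and 0.844 with DMSO. The part of depth or list length in the lower folds was not tested.

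In the C258A-FOXA1 line the count was level. DMSO libraries held 13 and 11 regions and WX-02-23 libraries 11 and 13, a difference of 0.0 (SE 1.41). No region of 14 was gained or lost, beside 2.37% and 2.55% across the genome. The region 22.4 kb upstream was held by 2 of 2 DMSO lists (9.12 and 5.26) and 2 of 2 WX-02-23 lists (6.36 and 6.75). The region 28.4 kb upstream was held in the same 4 lists, at 6.29 and 7.06 after DMSO and 7.56 and 4.70 after WX-02-23. By fold, 2 of 11 regions were lower and 0 higher without overlap, beside 24.9% and 11.9%. Without WX-02-23 replicate 1, 1 region was gained (13.6 kb upstream), and without DMSO replicate 2, 1 was lost (17.8 kb). The WX-02-23 change in regions held differed between the WT-FOXA1 and C258A-FOXA1 lines by -5.0 regions, for which the exact permutation test over 36 arrangements gave a two-sided p of 0.222 and could not go below 0.0556. Line labels were permuted within each treatment, which takes the lines as exchangeable there. With DMSO, WT-FOXA1 libraries held 15 and 13 regions and C258A-FOXA1 libraries 13 and 11. With lists of equal length the difference between the lines was -1.0.

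With PladB, too, the engineered libraries held no more regions than with DMSO on average. In the WT-FOXA1 line libraries held 10 and 13 regions, a difference from DMSO of -2.5 (SE 1.8, exact permutation p 0.667). With lists of equal length it was -0.5. Of 15 regions 1 was lost, the region 17.8 kb upstream, and 0 were gained, beside 3.05% and 0.915% across the genome. By fold, 3 of 10 regions were lower and 0 higher without overlap, beside 21.9% and 11.8%. Without PladB replicate 2 the lost regions numbered 3, with those at 0.9 kb inside and 28.4 kb upstream, and without DMSO replicate 2 they numbered 2. In the C258A-FOXA1 line PladB libraries held 11 and 11 regions, a difference of -1.0 (SE 1.0, exact permutation p 1.0). Of 13 regions 0 were lost and 0 gained, beside 4.67% and 0.806%. By fold, 3 of 11 were lower and 0 higher, beside 22.6% and 15.2%. None was lower in summit reads over the library background, for which no share of all regions is given here. Without DMSO replicate 2, 2 regions were lost (17.8 and 64.2 kb upstream).

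Induction of WT-FOXA1 was read from Dox against no Dox, both with DMSO. These Dox libraries are the same DMSO libraries as in the 2 WT-FOXA1 comparisons above. Without Dox the libraries held 11 and 10 locus regions and with Dox 15 and 13, a difference of 3.5 (SE 1.12), with an exact permutation p of 0.333, the smallest possible. Of 15 regions 1 was gained, 75.3 kb upstream, and 0 were lost, beside 13.2% and 1.10% across the genome. Its folds were 5.88 and 8.13 with Dox. Scaled by library background alone, the Dox summits correspond to 11.4 and 10.2 reads in the libraries without Dox. There 6 reads would have sufficed for a call in each. The scaled values rest on the Dox lists, which held the region by the rule that called it gained. The part of depth in this gain was not tested. With lists of equal length the difference was 0.0 and no region was gained. By fold, 1 of 9 regions was higher and 1 lower without overlap, beside 18.5% and 19.3%. The higher one, 42805456 to 42805978, lay beyond the gene's end and gave 11.8 and 13.1 with Dox against 8.04 and 7.07 without. In summit reads over the library background 3 were lower and 1 higher. No share of all regions is given here for that measure. Leaving out 1 library raised the gained regions to 3 without DMSO replicate 2 or without the no-Dox replicate 1, and to 2 without the no-Dox replicate 2.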

How the data were processed

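The labels' protocols describe preparation with a commercial ATAC-seq kit. The submitters' processing notes name Bowtie2, MACS2 and hg19. The sources used here give no versions, options, duplicate removal or shift of reads to the transposase's cut site. The authors called peaks in each library by itself. Each deposited peak has a score, a fold (a ratio of summit to local background, with a single read added to both), a summit position, and −log10 values of p and q.

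On chromosomes 1 to 22, X and Y, peaks of the 29 lists that overlapped or touched were merged. An overlap of 1 bp counted a region as held. The promoter class covered 1000 bp either side of the gene start. Where a list had several peaks in a region the highest was used. Summit reads and background were solved from fold and p as MACS2 defines them. Reads needed for a call were the fewest that reached the lowest −log10 p of that list.

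The members and lists were chosen with earlier results of these data known. Regions were named by rule: both promoter regions, upstream regions of 15 or more libraries, gained or lost regions, and the 3 highest by median fold in the gene body and beyond its end. All others were named after their values were seen. Exact permutation tests, two-sided, compared the numbers of regions, and their p-values measure only the spread between these libraries. The alternatives were a q-value of at most 1e-05, lists trimmed to equal length, 50% coverage of a region, windows of 100 bp around summits, the replicate block, and leaving out each library. Comparing summit reads over library background was chosen after seeing the data.

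Calls were tested on simulated data and merging was checked with bedtools 2.31.1. Scripts used scipy 1.17.1, pandas 2.3.3, numpy 2.4.6 and matplotlib 3.10.9 under Python 3.11.15.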

Additional observations from a re-analysis of the deposited data

How the results depend on the processing

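With 2 or 3 libraries per group no difference in the number of regions could pass its test, so these were judged by sign. With lists of equal length the difference became 0.0 for WX-02-23 against DMSO in parental cells and the WT-FOXA1 line and for Dox against no Dox, and reversed to -1.33 for WX-02-23 against WX-02-43. Gained regions became 1 for WX-02-43 and, in the WT-FOXA1 line, 1 for WX-02-23 and 0 for Dox. Lost regions became 1 for WX-02-23 against WX-02-43. In the WT-FOXA1 line they became 1 with WX-02-23 and 0 with PladB. With a q-value of 1e-05 or below, WX-02-23 against WX-02-43 reversed to -0.333, WX-02-23 in the C258A-FOXA1 line became -0.5, WX-02-43 gained 1 region, PladB lost 1 at each dose in parental cells and 0 in the WT-FOXA1 line. With 50% covered, WX-02-23 against WX-02-43 became 0.0 and WX-02-23 in the C258A-FOXA1 line 1.0, and with summit windows the latter was -0.5. Other values in the same direction were -0.667 for parental WX-02-23 with the stricter q-value, -0.333 for WX-02-43 with that q-value, with equal lists and with 50% covered, and -0.5 for PladB in the C258A-FOXA1 line with 50% covered. Trimming to equal length drops the least significant peaks of longer lists. Otherwise the cause was not tested.

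Leaving out 1 library gave these ranges of the difference in regions held in parental cells: -1.67 to 1.33 for WX-02-23 (1.33 without its replicate 2), -1.67 to -0.167 with WX-02-43, -2.0 to -1.5 for PladB 10 nM, -3.17 to -1.67 for PladB 100 nM and -0.667 to 2.33 for WX-02-23 against WX-02-43. That last value was -0.667 without WX-02-23 replicate 3 and -0.167 without WX-02-43 replicate 3. In the WT-FOXA1 line they were -7.0 to -3.0 for WX-02-23, -4.0 to -1.0 for PladB and 2.5 to 4.5 for Dox. In the C258A-FOXA1 line they were -1.0 to 1.0 for WX-02-23 and -2.0 to 0.0 for PladB, and between the lines -7.0 to -3.0. Parental calls ranged from 0 to 1 gained or lost, except 0 to 2 lost with PladB 10 nM, where both (13.0 and 13.6 kb upstream) appeared without its replicate 2. In the WT-FOXA1 line 2 to 6 were lost with WX-02-23 and 1 to 3 with PladB (3 without its replicate 2), and 1 to 3 gained with Dox. In the C258A-FOXA1 line WX-02-23 gained and lost 0 to 1 and PladB lost 0 to 2. No share of all regions is given for calls with a library left out.

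Same-numbered libraries did not deviate together over all regions, with correlations of at most 0.0157 in 30 parental and 0.00787 in 42 engineered pairs, so the numbers were not treated as pairs. With the replicate number as a block the differences could not change, since the groups compared hold the same replicate numbers. Examples are -5.0 for WX-02-23 in the WT-FOXA1 line (exact sign-flip p 0.5) and -2.67 for PladB 100 nM (exact sign-flip p 0.25). The block changed no call, since none had passed. The lowest called summit of each list had 5 to 8 reads, and lower summits were not listed.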
